A study of Homo sapiens with 6 samples.

Results

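The stress-activated mitogen-activated protein kinase (MAPK) cascades lead to the kinases JNK, p38 and ERK5. Their transcripts were measured in the human multiple myeloma line MM.1S after knockdown of KDM6B, which encodes a histone demethylase. The 34 kinases described here were chosen by gene symbol and ordered by tier, out of 56637 symbols in the count tables: 5 MAP4K, 13 MAP3K, 5 MAP2K and 8 MAPK genes, and 3 kinases that act downstream of p38 or ERK3. All 34 were found by symbol, and all 34 had enough counts to be tested. RNA came from 3 shKDM6B libraries, whose cells carried a lentiviral hairpin (shRNA) directed at KDM6B, and from 3 shLuc libraries, whose cells carried one directed at luciferase. Both groups had been through puromycin selection. The labels name 1 hairpin target per group and no second hairpin or rescue, so effects of KDM6B loss and other effects of the hairpin cannot be told apart. They do not say that the libraries of a group came from separate cultures. The p-values therefore rest on a spread between libraries that may be purely technical.

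In these cascades a signal passes down a chain of kinases, each of which phosphorylates the next: MAP4K to MAP3K to MAP2K to MAPK. A MAP2K switches on its MAPK by phosphorylating both a threonine and a tyrosine that lie with a single residue between them in the activation loop. MAP2K4 and MAP2K7 activate the JNK kinases, MAP2K3 and MAP2K6 activate the p38 kinases, and MAP2K5 activates ERK5. Stress, cytokines and DNA damage are the usual triggers. In plasma cell cancers JNK and p38 are known for their part in stress-induced death and survival. RNA counts report transcript amounts and not the phosphorylation that turns these enzymes on.

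The coding sequences of the activation loops are shown because the residue in the middle of the site separates the JNK, p38 and ERK5 branches. They run 5′ to 3′ from the conserved aspartate, phenylalanine and glycine codons, are taken from the principal transcripts of GENCODE release 29, and have the 3 codons of the phosphorylation site in capitals. The JNK genes MAPK8 and MAPK9 have a proline codon (CCT) in the middle, the 4 p38 genes a glycine codon (GGC or GGG) and MAPK7, which encodes ERK5, a glutamate codon (GAG). MAPK6, which encodes the atypical kinase ERK3, starts its site with a serine codon and also has a glutamate codon (GAA) in the middle. ERK3 is known not to be a substrate of these MAP2K enzymes.
MAPK8: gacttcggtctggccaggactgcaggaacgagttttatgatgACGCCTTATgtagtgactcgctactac
MAPK9: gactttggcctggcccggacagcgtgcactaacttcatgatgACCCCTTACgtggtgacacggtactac
MAPK14: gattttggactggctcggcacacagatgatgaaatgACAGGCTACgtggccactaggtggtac
MAPK11: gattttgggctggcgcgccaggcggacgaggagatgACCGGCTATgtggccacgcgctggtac
MAPK12: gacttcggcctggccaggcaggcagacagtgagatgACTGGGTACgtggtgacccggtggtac
MAPK13: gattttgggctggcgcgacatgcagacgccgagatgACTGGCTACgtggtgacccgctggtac
MAPK7: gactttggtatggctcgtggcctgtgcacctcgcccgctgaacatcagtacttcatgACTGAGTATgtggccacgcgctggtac
MAPK6: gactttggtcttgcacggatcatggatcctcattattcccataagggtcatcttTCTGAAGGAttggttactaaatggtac
Over this stretch MAPK8 and MAPK9 share 53 of 69 bases (76.8%). The p38 genes share between 73.0% (MAPK12 with MAPK11 and with MAPK14) and 84.1% (MAPK11 with MAPK13) of 63 bases.

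Totals were 7952156 to 9848351 counts in the shKDM6B libraries and 7338393 to 8996159 in the shLuc libraries. KDM6B itself had 239, 270 and 348 counts in shKDM6B replicates 1 to 3, against 409, 505 and 437 in shLuc replicates 1 to 3, and stood at 61.1% of the shLuc level (log2 fold change -0.71, SE 0.073, adjusted p = 7.72e-08). All 9 plasma cell markers were detected, with summed levels of 2620 to 2890 CPM (counts scaled to library size) in shKDM6B and 2770 to 2990 CPM in shLuc libraries. Of the mature B cell markers, CD22 was at 0 in every library and MS4A1 and PAX5 had at most 2 counts; the summed level, nearly all from CR2 and BACH2, was 140.0 to 164 CPM in shKDM6B and 178 to 199 CPM in shLuc libraries. The 5 T cell markers summed to 5.07 to 6.50 CPM in shKDM6B and 7.90 to 10.2 CPM in shLuc libraries, mostly from CD3E, with CD3G at 0 throughout. The 5 monocyte markers summed to 1.51 to 3.06 CPM in shKDM6B and 1.5 to 2.37 CPM in shLuc libraries. The 9 epithelial markers were uneven, with sums of 29.9, 43.6 and 2.03 CPM in shKDM6B replicates 1 to 3, against 11.6, 2.83 and 3.22 CPM in shLuc replicates 1 to 3. Keratins made up most of this: KRT5, KRT6A, KRT14 and KRT17 had 163, 296 and 4 counts in shKDM6B replicates 1 to 3, against 54, 10 and 4 in shLuc replicates 1 to 3. EPCAM had 7, 5 and 13 counts in shKDM6B replicates 1 to 3, against 11, 12 and 20 in shLuc replicates 1 to 3. The 5 fibroblast markers summed to 1.89, 3.42 and 0.406 CPM in shKDM6B replicates 1 to 3, against 0.954, 0.452 and 0.222 CPM in shLuc replicates 1 to 3. The part of these markers in the results was not tested. Fold changes below are shKDM6B over shLuc from edgeR's quasi-likelihood test, with p-values adjusted by Benjamini-Hochberg over 13839 genes and a threshold of 0.05. CPM values below are scaled by TMM, a library scaling method, and given per library or as mean ± SD with n = 3 libraries a group. The marker sums above are counts over library totals, without TMM.

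The cascade kinases changed in both directions, with the largest falls at MAP2K6, MAP3K5, MAP3K11, MAPKAPK2 and MAPK6. The largest rises that kept their call in every refit were at MAPK8, MAP4K5 and MAP3K4. The other JNK gene, MAPK9, rose less, and some refits did not call it. Of the 34, 11 rose, 12 fell and 11 did not pass. The background was high: 39.1% of all genes tested passed, 20.1% as higher and 18.9% as lower. The share of the kinases that passed was 67.6%. By tier it was 60.0% for MAP4K, 69.2% for MAP3K, 80.0% for MAP2K, 62.5% for MAPK and 66.7% for the downstream kinases. These tiers hold only 3 to 13 genes each. Among genes with a mean of at least 10 CPM, 20 of 31 kinases passed, where 44.1% of all such genes did. The changes were of the usual size for these libraries, with a median absolute log2 fold change of 0.18 for the kinases and 0.16 for all genes. Of the 23 kinases past the threshold, 10 changed by at least 1.3-fold and 9 by less than 1.2-fold. Of the 5405 genes past it, 2308 changed by at least 1.3-fold, which is 16.7% of all genes tested. Among all genes, 2105 of the 5405 past the threshold changed by less than 1.2-fold. A change of at least 1.5-fold was seen in 4 kinases (11.8%), against 10.7% of all genes. The median log2 fold change was -0.0042 for the kinases and -0.0053 for all genes. For 26 kinases the CPM ranges of the groups did not overlap, with shKDM6B above in 13 and below in 13. Such a gap was seen in 48.4% of all genes. By the DESeq2 Wald test 7 kinases were higher and 10 lower. Of all genes, 27.6% passed by that test. With TMM factors taken from sparsely covered genes alone (under 0.03 counts per base of exon), 12 kinases were higher and 9 lower. That scaling also moved the split over all genes to 3196 higher and 1778 lower, against 2783 higher and 2622 lower with TMM from all genes, and its share of all genes past the threshold was 35.9%. Upper-quartile scaling gave 2514 higher and 2913 lower genes. A fit without the 3 libraries with the most keratin counts (shKDM6B replicates 1 and 2 and shLuc replicate 1) leaves 1 shKDM6B and 2 shLuc libraries. It assumes that the lone shKDM6B library varies like the others, so it says little on any single call. In it 19 kinases passed, all in the direction they had with all libraries, and 26.5% of all genes did. Of the kinases called with all libraries, it did not call MAP3K6, MAP3K7, MAPK9 and MAPK13, whose log2 fold changes were 0.36, -0.12, 0.15 and -0.13.

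**Figure D1:**
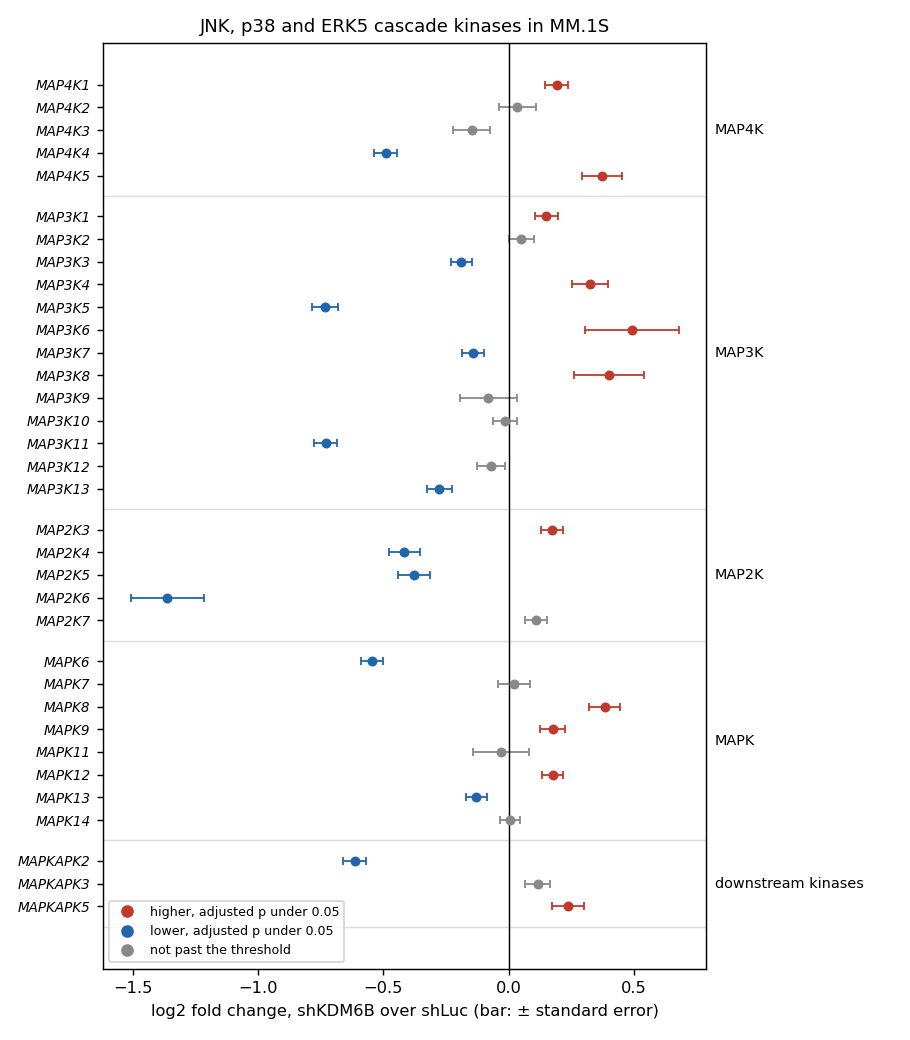
Log2 fold change, shKDM6B over shLuc (x axis), with its standard error as a bar, for the 34 kinases by tier (y axis); red marks genes past an adjusted p of 0.05 as higher, blue as lower, grey neither. MAP2K6 lies furthest to the left at -1.36, and 11 red and 12 blue points stand on either side of 0.

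The MAP4K tier, the entry point for signals from antigen and cytokine receptors and from small GTPases, had 2 kinases higher, 1 lower and 2 not past the threshold. MAP4K4, a broadly expressed kinase upstream of JNK, fell. It had 89.2, 86.8 and 90.7 CPM in shKDM6B replicates 1 to 3, against 124.8, 128.6 and 121.6 CPM in shLuc replicates 1 to 3. The groups were well apart, and the level in shKDM6B was 71.2% of that in shLuc (log2 fold change -0.49, SE 0.044, adjusted p = 1.02e-08). MAP4K1, the haematopoietic kinase HPK1, was the most abundant MAP4K per length, at 42.0 ± 1.4 CPM per kb of exon in shKDM6B and 36.8 ± 2.0 in shLuc libraries. It rose by a small amount (0.19, SE 0.046, adjusted p = 0.00205). MAP4K5 rose by 0.37 (SE 0.081, adjusted p = 0.000787), with 31.2 to 37.2 CPM in shKDM6B and 25.3 to 28.3 CPM in shLuc libraries. MAP4K2 had a log2 fold change of 0.035 (adjusted p = 0.746) and MAP4K3 of -0.15 (adjusted p = 0.118). In MAP4K3 the groups did not overlap, with shKDM6B below.

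In the MAP3K tier, where stress, cytokine and growth factor signals converge, 4 kinases rose, 5 fell and 4 did not pass. The largest falls were in MAP3K5 and MAP3K11, and both kept their call under every refit. MAP3K5 encodes ASK1, a sensor of oxidative stress that feeds JNK and p38. Its level was 50.7, 50.9 and 50.2 CPM in shKDM6B replicates 1 to 3, against 78.4, 87.5 and 85.4 CPM in shLuc replicates 1 to 3. All shKDM6B libraries were below all shLuc libraries, at 60.2% of their level (log2 fold change -0.73, SE 0.053, adjusted p = 3.66e-10). MAP3K11 encodes the mixed-lineage kinase MLK3, which acts mainly on JNK. It had 115.9, 120.7 and 113.5 CPM in shKDM6B replicates 1 to 3, against 190.5, 204.1 and 185.3 CPM in shLuc replicates 1 to 3. The gap between the groups was again several times the spread within them (log2 fold change -0.73, SE 0.047, adjusted p = 5.70e-11).

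Among the 34, 4 other kinases are mixed-lineage or leucine-zipper relatives of MAP3K11, and 1 of these passed. MAP3K13, encoding LZK, fell (-0.28, SE 0.050, adjusted p = 0.000116). MAP3K9, MAP3K10 and MAP3K12 had log2 fold changes of -0.080, -0.014 and -0.070, with adjusted p values of 0.621, 0.841 and 0.353. In the GENCODE annotation, 18.7% of the exon bases of MAP3K12 are shared with PCBP2 on the opposite strand and 7.20% of those of MAP3K13 with TMEM41A. Nothing in the name of the library kit marks it as stranded, and without strand such partners' reads cannot be told apart.

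MAP3K6 and MAP3K8 rose from low levels. MAP3K6, encoding ASK2, the partner of ASK1, had 51, 55 and 66 counts in shKDM6B replicates 1 to 3, against 25, 53 and 40 in shLuc replicates 1 to 3. The fitted change was 1.41-fold (log2 0.49, SE 0.19, adjusted p = 0.0400). In CPM the groups did not overlap, but shLuc replicate 2 was close to the shKDM6B libraries. It missed the threshold without shLuc replicate 1 or 3, without any 1 of the 3 shKDM6B libraries and by DESeq2, with adjusted p values from 0.0667 to 0.1705. MAP3K8, encoding TPL2, which links NF-kB signals mainly to ERK, had 72, 91 and 121 counts in shKDM6B replicates 1 to 3, against 64, 66 and 77 in shLuc replicates 1 to 3. Its 1.32-fold change (log2 0.40, SE 0.14, adjusted p = 0.0261) was not called by DESeq2 (adjusted p = 0.118). Nor was it called once shLuc replicate 2 (0.112), shKDM6B replicate 2 (0.0617) or shKDM6B replicate 3 (0.153) was removed.

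Of the 5 remaining MAP3K genes, 2 were higher and 2 lower. MAP3K4, encoding MEKK4, the kinase that GADD45 proteins activate, rose, with 48.0 to 52.9 CPM in shKDM6B and 35.1 to 44.1 CPM in shLuc libraries (0.33, SE 0.071, adjusted p = 0.000881). MAP3K1, encoding MEKK1, was higher by 0.15 (SE 0.046, adjusted p = 0.0112); without shKDM6B replicate 2 and by DESeq2 the adjusted p was 0.0938 and 0.0768. MAP3K7 encodes TAK1, the kinase shared by the NF-kB, JNK and p38 routes. It was lower by a small amount (-0.14, SE 0.044, adjusted p = 0.0140). The call did not hold without shKDM6B replicate 1 (adjusted p = 0.0793), by DESeq2 (0.0821) or with TMM from sparsely covered genes (0.359). MAP3K3, encoding MEKK3, which acts on MAP2K5, was also lower (-0.19, SE 0.044, adjusted p = 0.00148), and with TMM from sparsely covered genes its adjusted p was 0.126. LIMD2, on the opposite strand, shares 6.58% of its exon bases and had 157, 145 and 192 counts in shKDM6B replicates 1 to 3, against 95, 118 and 112 in shLuc replicates 1 to 3. Its relative MAP3K2 had a log2 fold change of 0.051 (adjusted p = 0.466).

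The MAP2K tier held the strongest change of the set. Of its 5 kinases 1 rose, 3 fell and 1 did not pass. MAP2K6, encoding MKK6, an activator of p38, had 33, 35 and 42 counts in shKDM6B replicates 1 to 3, against 81, 95 and 97 in shLuc replicates 1 to 3. In CPM these were 4.20, 4.18 and 4.24 in shKDM6B, against 11.1, 10.7 and 10.7 in shLuc. The level in shKDM6B was 38.9% of that in shLuc (log2 fold change -1.36, SE 0.15, adjusted p = 1.52e-07), and over all refits the log2 fold change lay between -1.38 and -1.30. MAP2K6 was the sparsest of the kinases, with 0.0038 counts per base of exon. The values within each group are close, and they are tighter than counts of this size would give by counting error alone.

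MAP2K4, encoding MKK4, which acts on JNK and to a lesser degree on p38, also fell. Its CPM was 41.4, 44.3 and 43.5 in shKDM6B replicates 1 to 3, against 55.9, 61.9 and 54.5 in shLuc replicates 1 to 3. The groups were apart, with shKDM6B at 75.0% of shLuc (log2 fold change -0.42, SE 0.061, adjusted p = 1.13e-05). MAP2K5, the ERK5 activator MEK5, fell to a similar degree, with 34.6 ± 1.9 CPM in shKDM6B and 45.0 ± 0.8 CPM in shLuc (-0.38, SE 0.064, adjusted p = 6.17e-05). MAP2K3, encoding MKK3, the other p38 activator, rose slightly (0.17, SE 0.045, adjusted p = 0.00366). MAP2K7, encoding MKK7, a kinase specific to JNK, had 0.11 as its log2 fold change (SE 0.044, adjusted p = 0.0561), which was not a call. Its adjusted p was 0.0263 when shLuc replicate 1 was removed and 0.0457 when shKDM6B replicate 3 was. Within each group the CPM of MAP2K7 was highest in the library with the fewest counts and lowest in the one with the most, 268, 263.9 and 258.5 in shKDM6B and 254.5, 243.9 and 234.8 in shLuc. Over all genes with 0.3 to 1 counts per base, a range that also holds MAP4K1, MAP2K3 and MAPKAPK2, the median difference in log2 CPM between the deepest and the shallowest library was -0.101 in shKDM6B and -0.0907 in shLuc. In genes under 0.03 counts per base, among them MAP2K6, MAP3K6, MAP3K8, MAP3K9 and MAPKAPK5, this median was 0.103 in shKDM6B and 0.0882 in shLuc. The part of these drifts in the results was not tested.

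Per length, the activators were unequal. MAP2K6 made up 0.607% ± 0.024 of the summed MAP2K3 and MAP2K6 transcript level in shKDM6B and 1.74% ± 0.05 in shLuc libraries (SD, n = 3 each), the rest being MAP2K3. MAP2K4 made up 12.8% ± 0.5 of MAP2K4 and MAP2K7 together in shKDM6B and 17.5% ± 1.0 in shLuc (SD, n = 3 each). The 2 kinases that fell were thus the minor transcript of each activator pair in both groups. Summed over each pair, the p38 activators stood at 41.7 ± 1.6 CPM per kb of exon in shKDM6B and 37.4 ± 1.1 in shLuc, and the JNK activators at 58.8 ± 0.8 in shKDM6B and 57.6 ± 2.1 in shLuc (SD, n = 3 each).

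**Figure D2:**
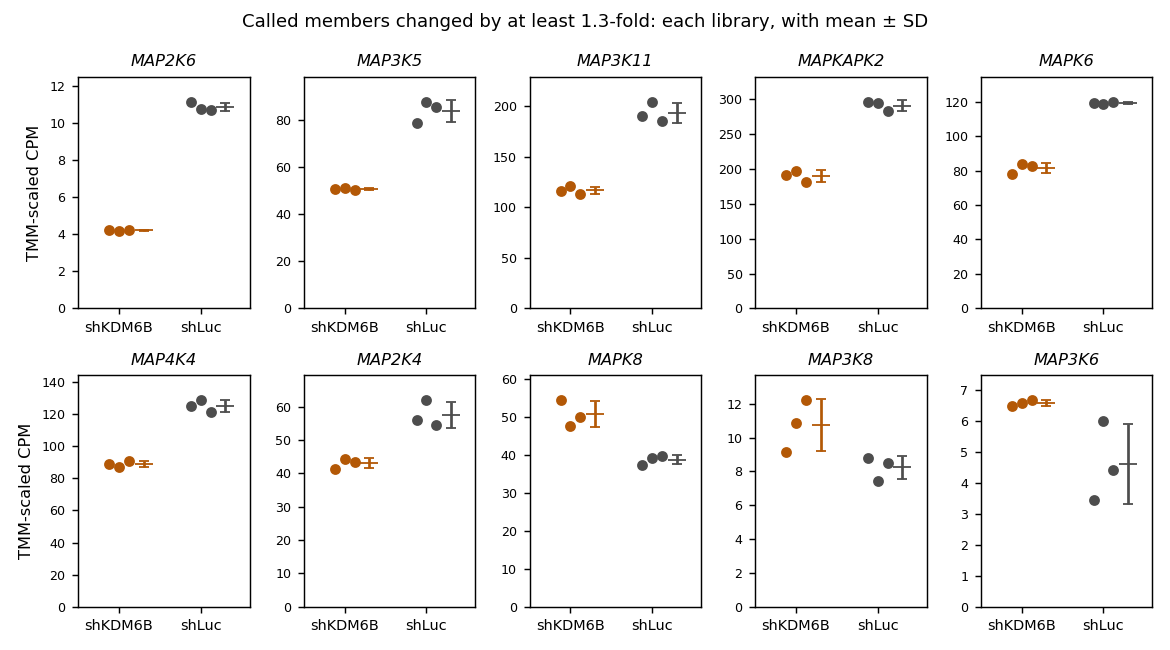
TMM-scaled CPM (y axis, from 0) in each shKDM6B and shLuc library for the 10 kinases past the threshold with a change of at least 1.3-fold; points are libraries and the bar beside them is the mean ± SD (n = 3). None of the 10 shows overlap between groups, and in MAP3K6 the shLuc libraries spread from 3.43 to 5.99 CPM below shKDM6B values of 6.49 to 6.66.

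Among the 8 MAPK genes, 3 rose, 2 fell and 3 did not pass. Both JNK genes rose. MAPK8, encoding JNK1, had 54.4, 47.7 and 49.96 CPM in shKDM6B replicates 1 to 3, against 37.4, 39.2 and 39.6 CPM in shLuc replicates 1 to 3. Each shKDM6B library was above every shLuc library, and the shKDM6B level was 130.4% of that in shLuc (log2 fold change 0.38, SE 0.063, adjusted p = 4.48e-05). MAPK9, encoding JNK2, rose less, with 80.9 ± 1.2 CPM in shKDM6B and 71.4 ± 4.1 CPM in shLuc (0.18, SE 0.050, adjusted p = 0.00735). It did not pass without shLuc replicate 1 (adjusted p = 0.0567) or by DESeq2 (0.0651). MAPK8 made up 36.7% ± 1.3 of the summed JNK1 and JNK2 transcripts per length in shKDM6B and 33.4% ± 0.7 in shLuc (SD, n = 3 each). Together they stood at 14.3 ± 0.4 CPM per kb in shKDM6B and 12.0 ± 0.6 in shLuc, well under the p38 genes. MAPK10, which encodes the neuronal JNK3, had 0 to 3 counts per library.

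The 4 p38 genes went different ways by small amounts. MAPK12, encoding p38 gamma, rose with 180.3, 177.1 and 187 CPM in shKDM6B replicates 1 to 3, against 161.5, 161.3 and 159.7 CPM in shLuc replicates 1 to 3 (log2 fold change 0.18, SE 0.042, adjusted p = 0.00184). Its exons in GENCODE release 29 share 29.3% of their bases with HDAC10 on the same strand. How reads in shared bases were counted was not given, so its counts are uncertain by an unknown amount. HDAC10 had 180, 202 and 265 counts in shKDM6B replicates 1 to 3 and 180, 215 and 232 in shLuc replicates 1 to 3. MAPK13, encoding p38 delta, was lower, with 119.5 ± 1.5 CPM in shKDM6B and 130.8 ± 1.5 CPM in shLuc (-0.13, SE 0.042, adjusted p = 0.0170). That call did not hold by DESeq2 (adjusted p = 0.0901), without shKDM6B replicate 1 (0.0504), without shKDM6B replicate 3 (0.0549) or with TMM from sparsely covered genes (0.473). MAPK14, encoding p38 alpha, the main target of p38 inhibitors, averaged 136.6 ± 2.9 CPM in shKDM6B and 136.0 ± 1.8 CPM in shLuc (0.0058, SE 0.042, adjusted p = 0.929). MAPK11, encoding p38 beta, was at -0.030 on the log2 scale (SE 0.11, adjusted p = 0.862).

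Per length, p38 alpha, gamma and delta each made up a similar share of p38 transcripts, and p38 beta the smallest. The shares in shKDM6B libraries were 32.3% ± 0.7 for MAPK14, 31.2% ± 0.8 for MAPK12, 26.9% ± 0.6 for MAPK13 and 9.60% ± 1.09 for MAPK11 (SD, n = 3). In shLuc libraries they were 32.4% ± 0.4 for MAPK14, 27.9% ± 0.3 for MAPK12, 29.7% ± 0.6 for MAPK13 and 9.97% ± 0.91 for MAPK11 (SD, n = 3). The shares of MAPK12 in all shKDM6B libraries were above those in all shLuc libraries, and those of MAPK13 below, while MAPK12 and MAPK13 changed places in order between the groups. The summed p38 level was 61.7 ± 1.2 CPM per kb in shKDM6B and 61.2 ± 0.9 in shLuc (SD, n = 3 each). These shares depend on the annotated lengths, and with the longest transcript as the length MAPK12 lay above MAPK13 in both groups.

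**Figure D3:**
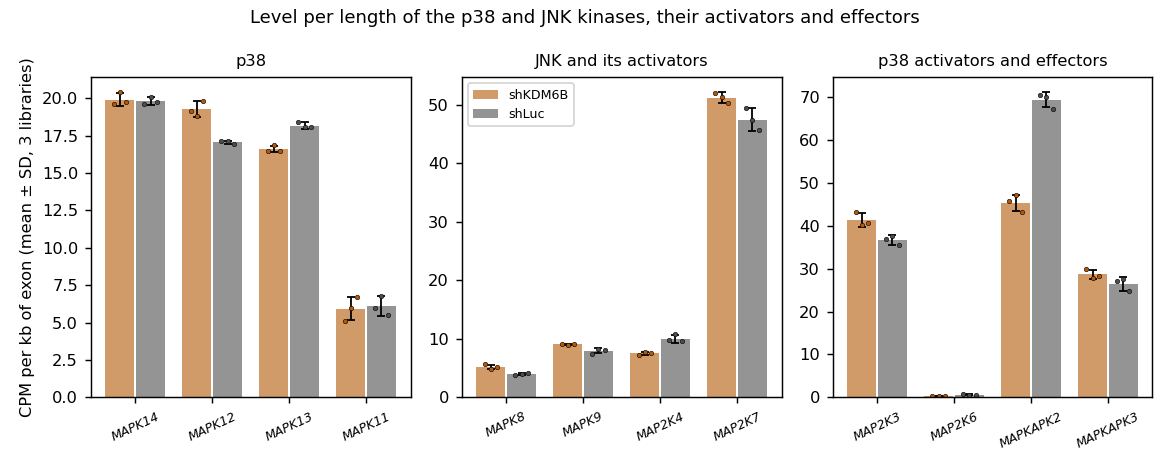
Level per length (y axis, TMM-scaled CPM per kb of exon, from 0) of the p38 genes, of the JNK genes with their activators, and of the p38 activators and effectors in shKDM6B (orange) and shLuc (grey); bars are means, lines SD and points the 3 libraries. MAPKAPK2 stands at 45.4 in shKDM6B and 69.4 in shLuc, MAP2K7 at 51.2 in shKDM6B and 47.5 in shLuc, and MAP2K6 is close to 0.

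MAPK7 and MAPK6 are the remaining MAPK genes. MAPK7, encoding ERK5, had 42.4 ± 1.1 CPM in shKDM6B and 41.9 ± 2.9 CPM in shLuc (log2 fold change 0.022, SE 0.065, adjusted p = 0.816), while its activator MAP2K5 was among the falls. Of the 4 kinases of the ERK5 branch (MAP3K2, MAP3K3, MAP2K5 and MAPK7), 2 fell, 0 rose and 2 did not pass. With 39.1% of all genes past the threshold, 4 genes are too few to show a fall of the branch. The fall of MAP3K3 was small (log2 fold change -0.19). It was not called with TMM from sparsely covered genes (adjusted p = 0.126). MAPK6, encoding ERK3, an unstable kinase outside the 3 cascades, fell clearly. Its CPM was 78.3, 83.8 and 82.9 in shKDM6B replicates 1 to 3, against 119.1, 118.6 and 119.8 in shLuc replicates 1 to 3. The shLuc libraries were nearly equal and above all shKDM6B libraries, which were at 68.6% of their level (log2 fold change -0.54, SE 0.045, adjusted p = 2.27e-09). Its processed pseudogenes in the count tables, MAPK6PS2, MAPK6PS3 and MAPK6PS4, had 0 to 1 counts per library.

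Of the 3 downstream kinases, MAPKAPK2 fell, MAPKAPK5 rose and MAPKAPK3 did not pass. MAPKAPK2 encodes MK2, the p38 effector that stabilises cytokine mRNAs by phosphorylating mRNA-binding proteins. Per length it was the most abundant of the 34 kinases in shLuc libraries, with 69.4 CPM per kb, while in shKDM6B libraries it had 45.4 CPM per kb and stood behind MAP2K7 (51.2). The CPM of MAPKAPK2 was 191.8, 197.6 and 181.4 in shKDM6B replicates 1 to 3, against 296.3, 294.4 and 282.7 in shLuc replicates 1 to 3. The shKDM6B level was 65.3% of that in shLuc (log2 fold change -0.61, SE 0.045, adjusted p = 4.48e-10), with no overlap. MAPKAPK3, encoding the close relative MK3, had 112.5 ± 4.3 CPM in shKDM6B and 103.9 ± 6.2 CPM in shLuc (0.12, SE 0.049, adjusted p = 0.0680); with TMM from sparsely covered genes its adjusted p was 0.0398. MK2 made up 61.2% ± 1.4 of the MK2 and MK3 transcripts per length in shKDM6B and 72.4% ± 0.7 in shLuc (SD, n = 3 each). Summed, they stood at 74.1 ± 2.2 CPM per kb in shKDM6B and 95.9 ± 3.3 in shLuc. MAPKAPK5, encoding MK5, a partner of ERK3, rose (0.24, SE 0.063, adjusted p = 0.00454), while MAPK6 fell. Its exons share 15.2% of their bases with the pseudogene ADAM1A and 5.65% with the antisense gene MAPKAPK5-AS1.

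Other kinases of these cascades were taken from a list of 14 genes, of which 11 were tested, 5 rose, 3 fell and 3 did not pass. The share past the threshold was 72.7%, against 39.1% of all genes. MAP3K14, encoding NIK, the kinase of the non-canonical NF-kB pathway, had the smallest p of the list. Its level was 93.8, 90.2 and 103 CPM in shKDM6B replicates 1 to 3, against 67.8, 70.5 and 63.6 CPM in shLuc replicates 1 to 3 (log2 fold change 0.51, SE 0.055, adjusted p = 1.52e-07). MAP3K21 (0.32, listed in the files as MLK4) and the MAP4K relatives TNIK (0.77) and MINK1 (0.22) were higher too. MINK1 and TNIK are the closest relatives of MAP4K4, which fell.

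Of 16 upstream activators and scaffolds 14 were tested, and 2 rose, 6 fell and 6 did not pass. That put 57.1% past the threshold, against 39.1% of all genes. The GTPases CDC42 and RAC1, which bind and activate MAP3K and other kinases, fell. CDC42 had 53.5, 51.7 and 50.5 CPM in shKDM6B replicates 1 to 3, against 88.0, 89.3 and 86.0 CPM in shLuc replicates 1 to 3 (log2 fold change -0.76, SE 0.050, adjusted p = 7.52e-11). RAC1 averaged 86.5 ± 0.7 CPM in shKDM6B and 120.6 ± 1.9 CPM in shLuc (-0.48, adjusted p = 9.25e-09). Both have processed pseudogenes, which had at most 8 counts per library in the rows named after them. TAB2 (-0.27) and TAB3 (-0.29), adaptors that bring TAK1 to ubiquitin chains, fell, and TAB1, which binds TAK1 directly, had a log2 fold change of 0.025 (adjusted p = 0.686).

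Of 19 substrates and targets, all tested, 3 rose, 5 fell and 11 did not pass, a share of 42.1% that is near the 39.1% of all genes. JUN, the transcription factor for which JNK is named, was lower (-0.67) and so was ELK1 (-0.52). KLF2, a known target of ERK5 signalling through MEF2 factors, rose, with 170.0, 165.4 and 154.1 CPM in shKDM6B replicates 1 to 3, against 96.7, 84.2 and 86.1 CPM in shLuc replicates 1 to 3 (log2 fold change 0.88, SE 0.052, adjusted p = 2.21e-11). RPS6KA4, encoding MSK2, a nuclear kinase activated by p38 and ERK, rose as well (0.58, SE 0.046, adjusted p = 1.33e-09). Of the other KLF and MEF2 genes in the list, MEF2D fell (-0.14, adjusted p = 0.0202). KLF4 (-0.055), MEF2A (-0.039) and MEF2C (-0.11) did not pass.

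Of 11 phosphatases that act on JNK and p38, all tested, 5 rose, 3 fell and 3 did not pass. Here 72.7% passed the threshold, against 39.1% of all genes. DUSP1, an inducible phosphatase of p38 and JNK, had 44.67, 37.64 and 34.02 CPM in shKDM6B replicates 1 to 3, against 125.0, 98.7 and 74.9 CPM in shLuc replicates 1 to 3 (log2 fold change -1.35, SE 0.13, adjusted p = 1.41e-08). The shLuc libraries varied widely, yet the lowest of them was above every shKDM6B library. DUSP10, which acts on the same kinases, fell by 1.27 on the log2 scale at low counts, 20, 24 and 42 in shKDM6B replicates 1 to 3, against 54, 74 and 72 in shLuc replicates 1 to 3. DUSP2 (0.43) and PTPN7 (0.27), phosphatases typical of blood cells, were higher.

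**Figure D4:**
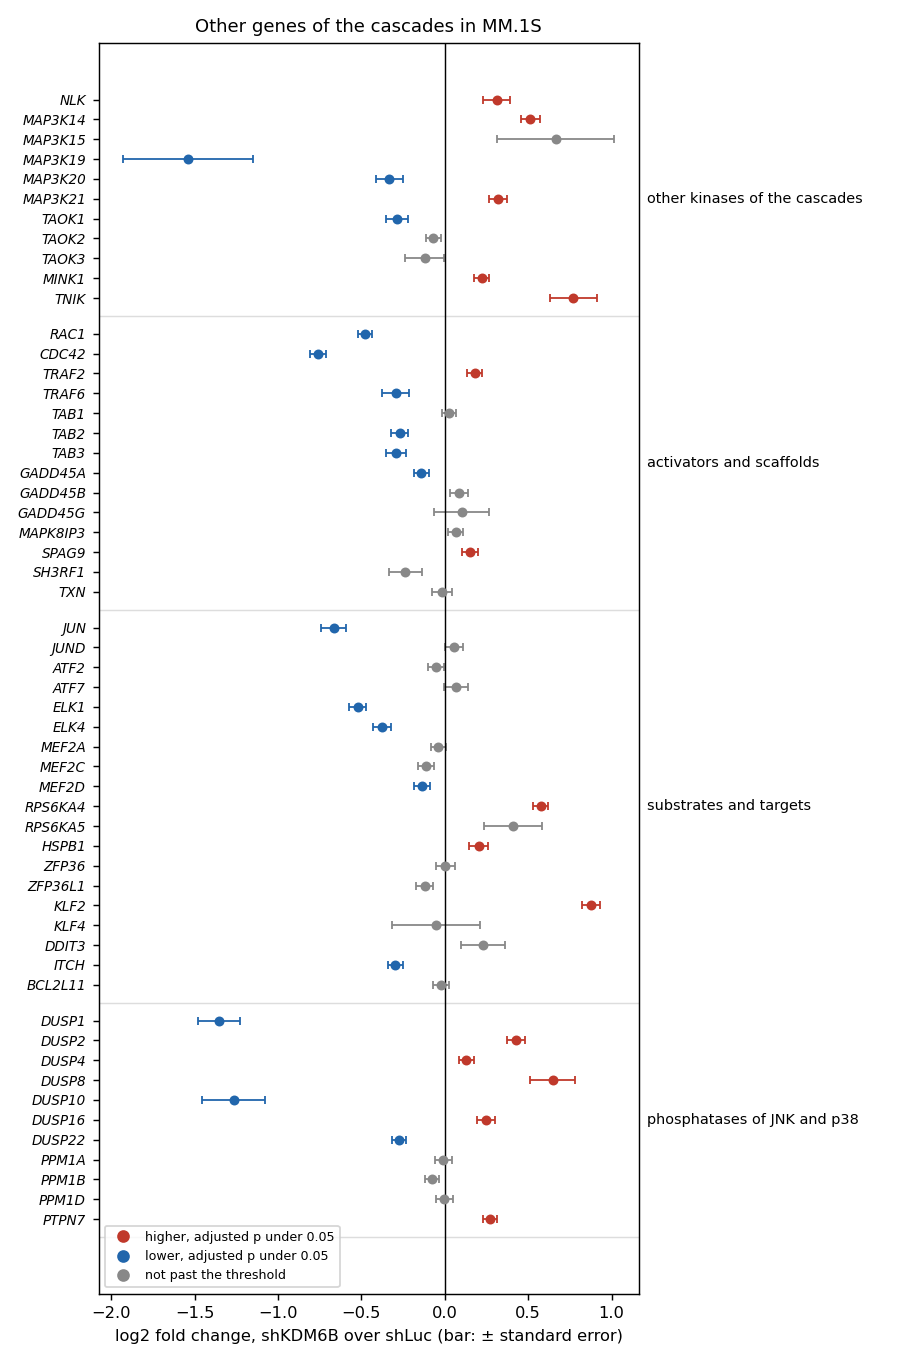
Log2 fold change, shKDM6B over shLuc (x axis), with its standard error as a bar, for the tested genes of the 4 other lists (y axis); red marks genes past an adjusted p of 0.05 as higher, blue as lower, grey neither. Red and blue points stand in every list, with CDC42, RAC1 and JUN among the falls and KLF2, RPS6KA4 and MAP3K14 among the rises.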

How the data were processed

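RNA of MM.1S cells was sequenced in 3 shKDM6B and 3 shLuc libraries. The submitters' processing notes name GRCh37 (hg19) as the build and list DESeq, featureCounts and STAR. Their versions, the annotation, the strand setting and the handling of duplicates were not given in the sources used here. Raw counts per gene symbol were what the authors deposited for each library. They also deposited a linear table of normalized signal values, in which a library's counts are all divided by the same factor. A line with a date in place of a symbol (1 per count table) was dropped.

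Testing used edgeR 4.0.16 under R 4.3.3 (filterByExpr, TMM, quasi-likelihood test, 6 libraries, group as the model's 1 term, Benjamini-Hochberg adjustment over 13839 genes). Each SE is the log2 fold change over the square root of its F statistic. The procedure was also run on counts simulated from its own fitted means and dispersion trend. Such counts match its model by design, so that run does not test the calls. Lengths are unions of exons in GENCODE release 29 (GRCh38), a build other than the authors'; 12049 of the genes tested had one. MAP3K21 was matched as MLK4. Transcript levels scaled to library size are relative, and report neither the number of cells nor the total RNA per cell.

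The 34 kinases and the other lists were chosen with earlier results of these data known. All 34 are named, with values of each library for those called with a change of at least 1.3-fold, and up to 4 called genes with the smallest p from each other list and KDM6B. MAPK10, TAB1, KLF4, MEF2A, MEF2C, MEF2D, marker genes and genes with shared exons were named after their values were seen. Alternatives were DESeq2 1.42.0 (Wald test, size factors), limma 3.58.1 (voom, and trend on log2 of the normalized values plus 1), upper-quartile scaling, TMM scaling from 3217 genes with under 0.03 counts per base, no filter, at least 1 CPM in 3 libraries, a replicate block, each library left out, the 3 libraries with the most keratin counts left out (54 or more counts of KRT5, KRT6A, KRT14 and KRT17 together, where the others had 10 or fewer), and an adjusted p of 0.01. The longest transcript as the length was added after the data were seen.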

Additional observations from a re-analysis of the deposited data

How the results depend on the processing

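Of the 23 kinases called, 16 kept their call in each of 16 refits, and the 7 that lost it in at least 1 are MAP3K1, MAP3K3, MAP3K6, MAP3K7, MAP3K8, MAPK9 and MAPK13; none of the 23 changed direction. The count of higher kinases was 7 by the DESeq2 Wald test, against 11. Over all genes the count of higher genes was 1966 by that test, against 2783. Leaving out each library in turn gave 8 to 10 higher and 10 to 12 lower kinases. Over all genes those fits called 4533 to 5030, against 5405 with all libraries. The replicate block has no base in the labels (the deviations of same-numbered libraries correlated at 0.116, -0.0767 and 0.152). It gave 13 higher and 12 lower kinases, while the genes called over all genes also rose, to 6218. MAP2K7 (adjusted p = 0.00618) and MAPKAPK3 (0.0223) were then past the threshold as higher. For KDM6B the block gave -0.71. Signs turned only in kinases that were not called in any of those fits. Leaving out each library in turn, the log2 fold change ranged between -0.015 and 0.082 for MAP4K2, -0.0014 and 0.098 for MAP3K2, -0.052 and 0.017 for MAP3K10, -0.040 and 0.058 for MAPK7, -0.13 and 0.061 for MAPK11, and -0.015 and 0.018 for MAPK14. With 1 shKDM6B and 2 shLuc libraries, the 3 with the most keratin counts being left out, it was 0.050 for MAP3K10, 0.085 for MAP3K12, 0.12 for MAPK11 and -0.014 for MAPK14. With TMM from sparsely covered genes, which raised the median of all genes by 0.057, it was 0.042 for MAP3K10 and 0.027 for MAPK11. With upper-quartile scaling it was -0.012 for MAPK14. The cause of these turns was not tested. With the longest transcript as the length, shares in shKDM6B and shLuc were 7.57% and 7.93% for MAPK11, 33.6% and 30.3% for MAPK12, 22.3% and 24.8% for MAPK13, 36.6% and 37.0% for MAPK14, 33.2% and 30.2% for MAPK8, 0.479% and 1.38% for MAP2K6, and 63.0% and 73.9% for MAPKAPK2. The 16 genes named from the other lists for the smallest p kept their calls under all alternatives. They were picked for that small p, so this was likely beforehand and says nothing on the other called genes of the lists.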
